A study of Mus musculus with 4 samples.

Results

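Hox genes encode transcription factors that bind DNA through a shared domain, the homeodomain, and that give cells a positional identity along the body axis. Mammals carry them in 4 clusters, Hoxa, Hoxb, Hoxc and Hoxd, and within a cluster the genes lie in the order in which they act, from the anterior end of the body (low numbers) to the posterior end (high numbers). Genes with the same number in different clusters are paralogues and form a paralog group. Fibroblasts keep part of the Hox pattern of the place they came from when they are grown in culture. The members described here were all gene rows of the deposited count table whose symbol is Hoxa, Hoxb, Hoxc or Hoxd followed by a number, which gave 39 of 47937 genes. Of these, 11 were in Hoxa on chromosome 6, 10 in Hoxb on chromosome 11, 9 in Hoxc on chromosome 15 and 9 in Hoxd on chromosome 2. The anterior genes (paralog groups 1 to 3) numbered 8, the central genes (groups 4 to 8) 15 and the posterior genes (groups 9 to 13) 16.

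Total RNA of mouse embryonic fibroblasts (MEF cells), which the labels list as a cell line, was sequenced in 4 libraries. The untreated group held 2 libraries of wild-type control MEF cells. The genistein group held 2 libraries of MEF cells kept for 24 h with 50 µM genistein, a plant isoflavone that inhibits tyrosine kinases, and for these the genotype entry reads only "Genistein treated". The comparison asked which genes and repeats change their RNA level after genistein. The labels do not say whether the libraries of a group came from separate cultures, so each p-value measures the spread between these libraries, which may be technical. Raw totals ran from 28591958 to 31464284 counts per library, of which 2421 to 2971 fell in Hox genes. The RNA is of whole cultures, in which fewer cells of a type and less RNA per cell cannot be told apart. Of 12 fibroblast marker genes, 11 were detected and Thy1, a fibroblast surface antigen, was at 0 in every library. Their summed normalised count was 451884 to 464766 in the untreated and 421578 to 431590 in the genistein libraries. The 5 epithelial markers summed to 452 to 462 and then 131 to 137, with the defining Epcam and Esrp1 at 0. Most of this was Krt8 (396 and 413, then 125 and 117). The 4 endothelial markers summed to 25.0 to 30.7 and then 85.3 to 97.2. The 4 haematopoietic markers summed to 65.6 to 84.9 and then 211 to 214, nearly all of it Cd68, with Adgre1 and Spi1 at 0. The 4 neural markers summed to 1212 to 1328 and then 1047 to 1113, with Sox2 and Sox10 at 0, and the 3 pluripotency markers to 33.0 to 37.1 and then 48.8 to 56.7. The part of these shifts in the Hox results was not tested.

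MEF cells read out only a part of the Hox repertoire. A total of 20 of the 39 genes had enough counts for the test, and 19 had not. Among the latter, 7 genes had no count in any library, namely Hoxa11, Hoxb1, Hoxb13, Hoxc11, Hoxd11, Hoxd12 and Hoxd13. At this depth a count of 0 allows up to 3 counts, or 0.0953 to 0.105 CPM, the count relative to the library total, and this limit covers counting error only. Another 10 genes had fewer than 10 reads in every library, with at most 8, and these were Hoxa13, Hoxb7, Hoxb8, Hoxc5, Hoxc6, Hoxc8, Hoxc10, Hoxc12, Hoxd1 and Hoxd10. The remaining untested genes, Hoxb5 and Hoxc4, both of the central class, reached 10 reads in at least 1 library. Hoxb5 had raw counts of 2 and 7 before and of 17 and 9 after genistein, and Hoxc4 had 8 and 11, then 9 and 2. When no low-count filter was applied, Hoxb5 was called higher (edgeR adjusted p = 0.019, Benjamini-Hochberg) and Hoxc4 was not (edgeR adjusted p = 0.20).

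The clusters differed in how many of their genes had reads. In Hoxa 9 of 11 genes could be tested, in Hoxb 5 of 10, in Hoxd 4 of 9 and in Hoxc only 2 of 9, Hoxc9 and Hoxc13. By position, 6 of 8 anterior, 8 of 15 central and 6 of 16 posterior genes could be tested. No member of paralog groups 11 and 12 could be tested, and in group 13 Hoxc13 alone had reads beyond the low-count limit. Hoxc13 stood apart from its 3 nearest neighbours in the cluster, Hoxc12, Hoxc11 and Hoxc10, which had at most 1 raw count in any library although Hoxc12 begins 7.94 kb from the end of Hoxc13.

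Levels of different genes were compared as normalised counts per kilobase of exon, where a normalised count is a raw count scaled to the mean effective library size. On this per-kilobase scale the untreated order was led by Hoxd8 at 299.9, followed by Hoxb2 at 129.0, Hoxb4 at 93.8, Hoxa5 at 75.4 and Hoxd9 at 70.0. Hoxd8, Hoxb2 and Hoxb4 each lay apart from the next gene beyond the spread of the untreated libraries, while Hoxb3, Hoxd4, Hoxc13 and Hoxa6 each overlapped with the next of them. Of the 19 neighbouring pairs in this order, 9 overlapped. The lowest tested gene was Hoxa9 at 2.21 per kilobase. In the genistein libraries the per-kilobase level of Hoxc13 was 138 and that of Hoxd8 was 134, so the posterior Hoxc13 had come level with the gene that led in untreated cells.

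**Figure D1:**
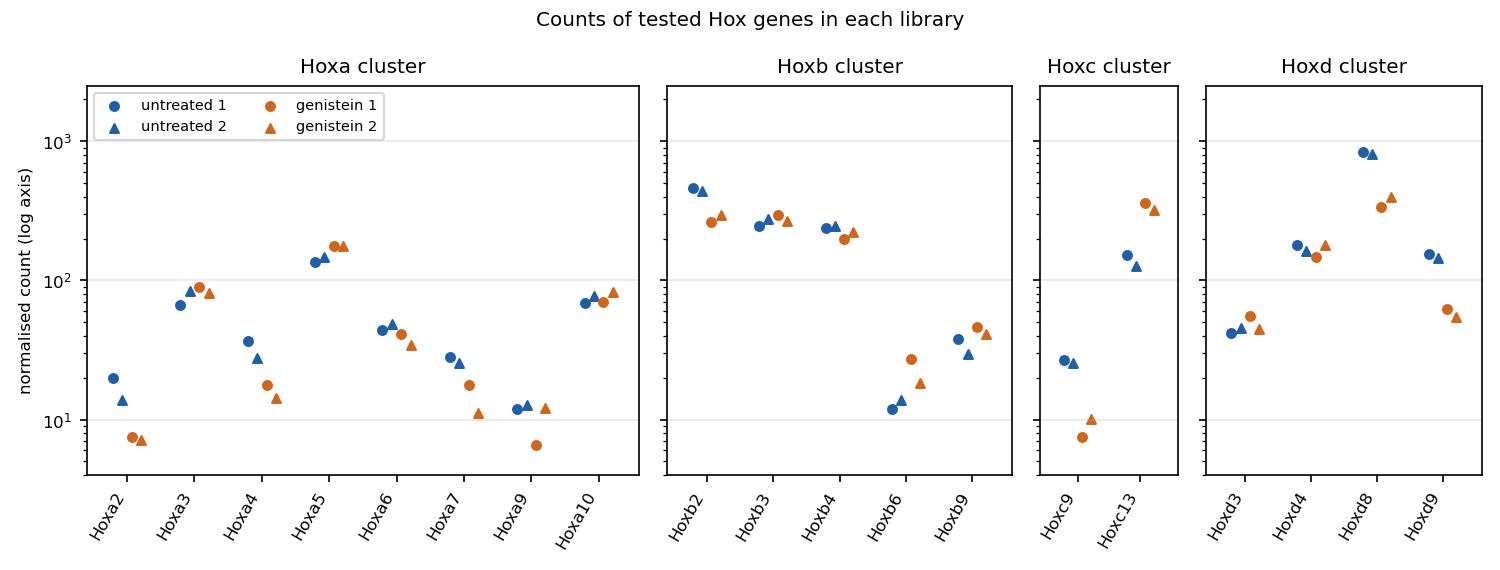
Normalised counts (log axis) of 19 of the 20 tested Hox genes by cluster, with 1 point per library (blue untreated, orange genistein, circles replicate 1 and triangles replicate 2). Hoxd8 lies at 809 and 837 in the untreated and at 337 and 399 in the genistein libraries, and Hoxc13 moves the other way, from 126 and 152 to 319.9 and 358.

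After genistein, 3 of the 20 tested Hox genes were higher and 7 were lower at an edgeR adjusted p under 0.05, and 10 had no call. Over all 16240 genes tested, 71.7% were called, 33.5% higher and 38.2% lower, and whether the share of called Hox genes differs from that background was not tested. The median log2 fold change (genistein against untreated) of the tested Hox genes was -0.13, beside -0.03 over all genes. The groups did not overlap in 13 of the 20 genes, beside 85.3% of all genes. The genes that passed the low-count filter are not all members, and Hoxa2, Hoxa9 and Hoxc9 passed only through the untreated group. Of the 10 calls, 5 held in DESeq2 and whenever any 1 library was left out: Hoxc13 among the higher and Hoxb2, Hoxc9, Hoxd8 and Hoxd9 among the lower. The other 5 (Hoxa2, Hoxa4, Hoxa5, Hoxa7 and Hoxb6) had DESeq2 adjusted p-values of 0.093 to 0.27. With DESeq2, 1 Hox gene was higher and 4 were lower, beside 24.9% and 32.7% of all genes (57.6% in either direction). Where a call also needed a log2 change larger than 1 in size and an average above 100 normalised counts, 1 gene (Hoxc13) was higher and 2 (Hoxd8 and Hoxd9) were lower, beside 3.92% and 4.16% of all genes.

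Of the 5 genes with calls that held, 4 are shown here by the part of the homeobox that encodes the DNA-recognition helix, to show what the family shares and how its reads can be told apart. Each line is bases 121 to 180 of the 180-base homeobox, read from the GENCODE transcripts of GRCm38, and capitals mark bases that differ from the most common base at that place among the 39 members.
Hoxb2: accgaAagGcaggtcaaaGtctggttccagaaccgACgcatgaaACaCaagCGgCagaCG
Hoxc9: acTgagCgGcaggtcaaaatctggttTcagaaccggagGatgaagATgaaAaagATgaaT
Hoxc13: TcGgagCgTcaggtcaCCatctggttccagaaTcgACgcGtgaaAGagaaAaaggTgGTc
Hoxd8: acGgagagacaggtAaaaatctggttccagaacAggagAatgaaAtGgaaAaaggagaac
In this window Hoxd8 differed from the most common base at 7 places, Hoxc9 at 11, Hoxb2 at 13 and Hoxc13 at 16. Over the whole homeobox, Hoxc9 and Hoxd9, paralogues of group 9, were 82.8% identical, while Hoxd8 and Hoxd9, neighbours on chromosome 2, were 68.3% identical. The median identity was 80.6% over the 42 pairs of the same paralog group and 61.7% over the 172 pairs of the same cluster. Despite this likeness, 31 of the 39 members had no stretch of 50 bases in common with another member's transcripts, and only Hoxd3, Hoxd4, Hoxc5 and Hoxc10 shared more than 1% of such stretches. Hoxb2, Hoxc13, Hoxd8 and Hoxd9 shared none, and Hoxc9 shared 1 with Hoxb9.

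Hoxc13, a posterior gene that is known for its role in hair and nail and in hair keratin expression, rose most among the Hox genes tested. Its gene spans chr15:102921103-102928814 on the plus strand of GRCm38. Untreated 1 and 2 gave 152 and 126 normalised counts, and genistein 1 and 2 gave 358 and 319.9. Both treated libraries lay above both untreated ones, with group means of 139 ± 18.3 and 339 ± 27.1 (SD, n = 2 each). The log2 fold change was 1.29 ± 0.11 (SE, edgeR adjusted p = 2.8e-08, DESeq2 adjusted p = 7.4e-12), a 2.44-fold higher level, and it stayed between 1.16 and 1.42 when any 1 library was left out.

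Its cluster mate Hoxc9, which sets thoracic identity in the spinal cord and skeleton, fell. It had 27.0 and 25.4 normalised counts without and 7.5 and 10.1 with genistein. The groups did not overlap, but the counts were low. Hoxc9 passed the low-count filter only through the untreated libraries, in which it was high. The log2 fold change was -1.57 ± 0.34 (edgeR adjusted p = 6.9e-04, DESeq2 adjusted p = 0.026) and ran from -1.79 to -1.36 with 1 library left out. The ratio of Hoxc13 to Hoxc9 within a library, a measure chosen after the values were seen, was 5.63 and 4.96 in untreated cells and 47.8 and 31.6 after genistein. The treated ratios rest on the low Hoxc9 counts of 7.5 and 10.1.

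In the Hoxd cluster the pair of neighbouring genes Hoxd8 and Hoxd9 fell. Hoxd8, at chr2:74704615-74707933, acts in the trunk and was the Hox gene with the most reads in untreated MEF cells. Untreated 1 and 2 gave 837 and 809 normalised counts, against 337 and 399 for genistein 1 and 2. All treated values lay far below the untreated ones, and the log2 fold change was -1.17 ± 0.07 (edgeR adjusted p = 5.9e-10, DESeq2 adjusted p = 2.2e-22), with -1.29 to -1.04 when 1 library was left out. Hoxd9, at chr2:74697727-74700208, patterns the upper forelimb and lower spine together with its paralogues. It had 154 and 145 normalised counts in untreated and 62.8 and 54.7 in treated libraries. These groups did not overlap either, and the log2 fold change was -1.34 ± 0.15 (edgeR adjusted p = 5e-07, DESeq2 adjusted p = 8.9e-07).

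The tested genes on the other side of Hoxd8, Hoxd3 and Hoxd4, had no call. Hoxd3, which acts in the neck vertebrae, had 42.0 and 45.5 normalised counts in untreated and 55.3 and 44.5 in treated libraries, a log2 fold change of 0.20 ± 0.21 (edgeR adjusted p = 0.41). Hoxd4 had 179 and 162, then 146 and 181, a log2 fold change of -0.06 ± 0.13 (edgeR adjusted p = 0.67). In both genes the groups overlapped. The summed counts of Hoxd8 and Hoxd9 were 4.49 and 4.60 times those of Hoxd3 and Hoxd4 before genistein and 1.98 and 2.01 times after it, a ratio that was also chosen after the values were seen. Hoxd3 and Hoxd4 share 62.4% and 52.3% of their exon bases with other genes of the same strand, mostly with Gm28230 (53.1% and 39.1%) and less with each other (9.3% and 13.2%), so that their reads could not be fully separated, whereas Hoxd8 and Hoxd9 share no exon base with another gene. Hoxd8 lies 4.41 kb from Hoxd9 and 3.99 kb from the first annotated base of Hoxd3.

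The promoters of these 4 Hoxd genes are shown because Hoxd8 and Hoxd9 fell while Hoxd3 and Hoxd4 had no call. Each line is the 100 bases before the transcript start in RefSeq (GRCm38.p6), and capitals mark, on either strand, the TATA box searched as TATAAA, the so-called CCAAT box searched by its name's letters, or the GC box of Sp1-like factors searched as GGGCGG. Where no capitals appear, none of the 3 motifs lies in these bases. RefSeq starts differ here from the GENCODE gene starts used for counts and distances. The lines of Hoxd9 and Hoxd3 lie partly, and that of Hoxd4 wholly, inside the GENCODE genes, which begin at 74697727, 74711927 and 74711929. The Hoxd8 line ends just before its GENCODE start.
Hoxd8 promoter, chr2:74704515-74704614, plus strand: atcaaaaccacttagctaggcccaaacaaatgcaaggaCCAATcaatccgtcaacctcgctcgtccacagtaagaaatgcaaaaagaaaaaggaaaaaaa
Hoxd9 promoter, chr2:74697663-74697762, plus strand: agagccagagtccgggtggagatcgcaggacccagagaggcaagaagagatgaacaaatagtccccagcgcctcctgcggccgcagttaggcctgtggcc
Hoxd3 promoter, chr2:74711893-74711992, plus strand: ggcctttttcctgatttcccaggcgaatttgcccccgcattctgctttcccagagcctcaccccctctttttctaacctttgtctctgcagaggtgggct
Hoxd4 promoter, chr2:74721878-74721977, plus strand: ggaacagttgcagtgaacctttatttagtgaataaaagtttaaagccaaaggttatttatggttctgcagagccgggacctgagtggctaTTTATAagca
Motifs were counted in 300 bases, 250 before and 50 after the start, in the 32851 promoters of that table. The CCAAT box was found in 37.4% of them, the GC box in 35.7% and the TATA box in 13.6%. Of the 24 promoter windows of the 22 Hox genes listed there, 15 held a CCAAT box, 10 a GC box and 4 a TATA box. The Hoxd8 window held a CCAAT box and 6 CpG dinucleotides, the Hoxd9 window a GC box and 20, the Hoxd3 window a CCAAT box and 20, and the Hoxd4 window a CCAAT box, a TATA box and 4. The median number of CpG dinucleotides was 14.5 over the Hox windows and 7 over all promoters. The Hoxd8 and Hoxd9 windows had none of these 3 motifs in common. Hoxb2 and Hoxc9, which also fell, were not listed there, and a link between motifs and changes was not tested.

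The anterior gene Hoxb2, which acts in hindbrain segments and facial motor neurons, fell as well. It had 461 and 439 normalised counts in untreated and 263 and 297 in treated libraries. The groups did not overlap, and the log2 fold change was -0.69 ± 0.08 (edgeR adjusted p = 1.7e-06, DESeq2 adjusted p = 2.9e-06), a 1.61-fold lower level. Its paralogue Hoxa2, which gives the second pharyngeal arch its identity, had 20 and 13.8 and then 7.5 and 7.08 normalised counts. It was called lower in edgeR (log2 fold change -1.20 ± 0.41, edgeR adjusted p = 0.015) but not in DESeq2 (adjusted p = 0.16), and the call was lost when untreated 1 (edgeR adjusted p = 0.21) or either genistein library was left out. Hoxa2 passed the low-count filter only through the untreated libraries, in which it was high. It shares 15.0% of its exon bases with Gm28308 on the same strand, so its reads may not have been fully separated. The 3 members of paralog group 3 had no call, with log2 fold changes of 0.18 for Hoxa3, 0.11 for Hoxb3 and 0.20 for Hoxd3.

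In Hoxa, 1 of 9 tested genes was called higher and 3 were called lower, beside 33.5% and 38.2% of all genes. None of these calls held in DESeq2. Hoxa5, which is needed for the airways and neck vertebrae, had 136 and 147 normalised counts in untreated and 178 and 177 in treated libraries. Both treated values were higher, by a log2 fold change of only 0.33 ± 0.12 (edgeR adjusted p = 0.018, DESeq2 adjusted p = 0.18). Hoxa4, which patterns the neck region, had 37.0 and 27.5 and then 17.8 and 14.2 (log2 fold change -1.01 ± 0.30, edgeR adjusted p = 0.0063, DESeq2 adjusted p = 0.093). The treated values were the lower ones here and in Hoxa7, a gene of the trunk, which had 28.0 and 25.4 and then 17.8 and 11.1 (log2 fold change -0.87 ± 0.32, edgeR adjusted p = 0.022, DESeq2 adjusted p = 0.18). On the opposite strand, Hoxa4 shares 16% of its exon bases with Gm29430, and Hoxa7 shares 20.4% with Hoxaas3. Since the strand setting of the counting is not given, reads of these genes may not have been separated. Without untreated 1 or without genistein 2, the calls of Hoxa4 (edgeR adjusted p = 0.089 and 0.056) and of Hoxa7 (0.10 and 0.21) were lost. That of Hoxa5 was lost without untreated 1, genistein 1 or genistein 2 (0.093, 0.064 and 0.055).

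Hoxb6, a central gene of the trunk and hindlimb field, was the only tested Hoxb gene called higher. It had 12 and 13.8 normalised counts in untreated and 27.2 and 18.2 in treated libraries. The treated libraries were higher but far apart (log2 fold change 0.82 ± 0.34, edgeR adjusted p = 0.041, DESeq2 adjusted p = 0.27), and the call was lost without untreated 1, untreated 2 or genistein 1 (edgeR adjusted p = 0.16, 0.078 and 0.38) and with the replicate block (edgeR adjusted p = 0.052). The 10 tested Hox genes with no call had log2 fold changes from -0.41 (Hoxa9) to 0.37 (Hoxb9) and edgeR adjusted p-values of 0.098 to 0.77. Their standard errors ran from 0.10 for Hoxb3 and Hoxb4 to 0.43 for Hoxa9, so changes of the size seen in Hoxa5 were not detectable in the low-count members. Within paralog group 9, Hoxc9 and Hoxd9 fell, while Hoxa9 and Hoxb9 had no call. The difference between paralogues was not tested.

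**Figure D2:**
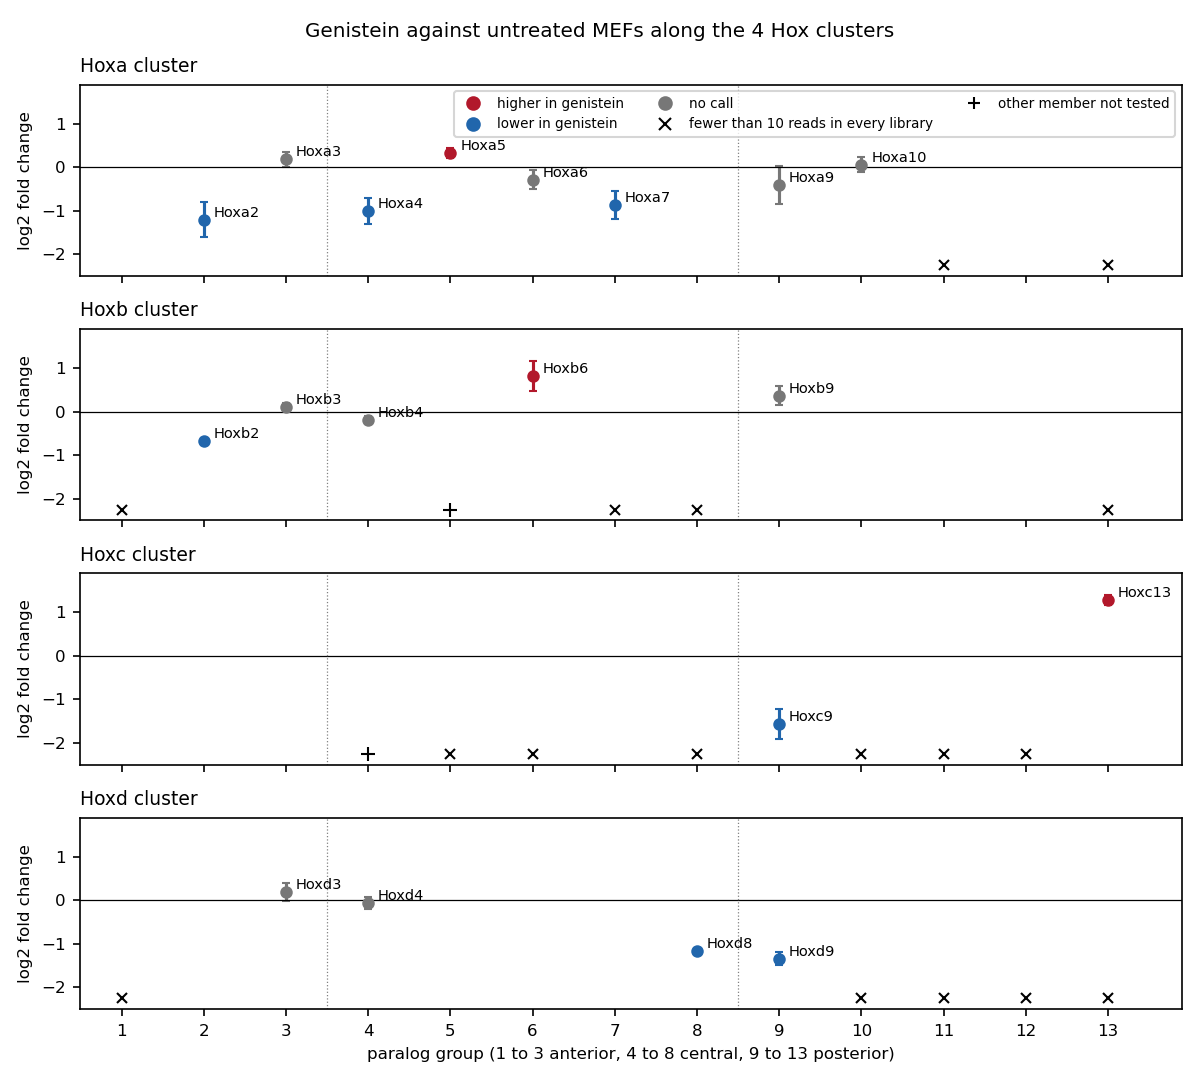
Log2 fold change (genistein against untreated, bars ± SE of the edgeR fit) of 19 of the 20 tested Hox genes by paralog group, with 1 panel per cluster, coloured by call. Crosses at the bottom mark the 17 genes with fewer than 10 reads in every library and plus signs Hoxb5 and Hoxc4; the calls change from gene to gene along each cluster, with Hoxc9 at -1.57 and Hoxc13 at 1.29.

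Set side by side, the 4 clusters did not move alike. Among tested genes the median log2 fold change was -0.29 in Hoxa (1 of 9 higher, 3 lower) and 0.11 in Hoxb (1 of 5 higher, 1 lower). It was -0.61 in Hoxd (none of 4 higher, 2 lower), while Hoxc held only 1 higher and 1 lower gene. Over all genes 33.5% were higher and 38.2% lower, and whether any cluster differs from these shares was not tested. The summed normalised count of all 11 Hoxa genes was 571 and 591 in untreated and 605 and 573 in treated libraries, so the groups overlapped. The Hoxb sum was 997 and 1015 and then 855 and 858 (log2 ratio -0.23). The Hoxc sum was 188 and 164 and then 379.8 and 336 (log2 ratio 1.02). The treated libraries were lower in the first of these and higher in the second. The Hoxd sum was 1212 and 1164 and then 605 and 683 (log2 ratio -0.88), and Hoxd made up 40.8% and 39.7% of all Hox counts and then 24.7% and 27.9%. The sum over all 39 genes was 2968 and 2934 and then 2445 and 2451 (log2 ratio -0.27). The sums are descriptions and were not tested.

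The sums of Hoxb, Hoxc and Hoxd were computed again without the member with the most counts. Without Hoxb2, the Hoxb sum was 536 and 576 in untreated and 592 and 562 in treated libraries, so the groups overlapped (log2 ratio 0.052). Without Hoxc13, the Hoxc sum was 36.0 and 38.1 in untreated and 21.6 and 16.2 in treated libraries (log2 ratio -0.97), which is the opposite direction. Without Hoxd8, the Hoxd sum was 375 and 355 and then 268 and 284 (log2 ratio -0.40), still lower in both treated libraries. These 3 sums were computed after the values were seen.

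**Figure D3:**
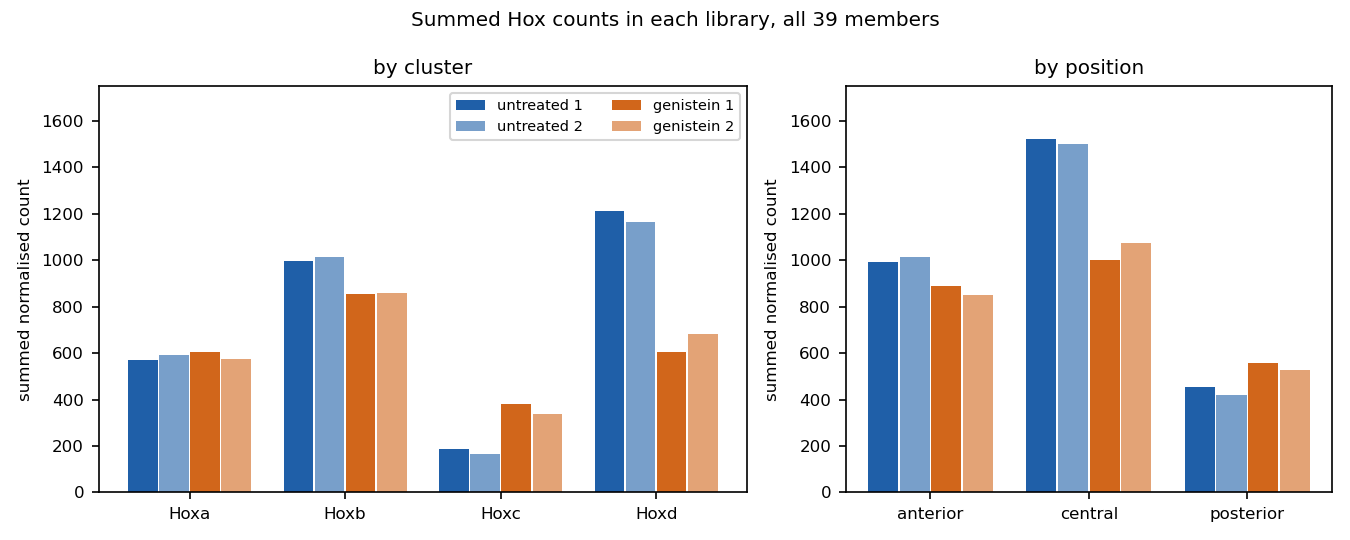
Summed normalised counts of all 39 Hox genes in each library (1 bar per library, blue untreated and orange genistein, lighter shade for replicate 2), by cluster on the left and by position on the right. The Hoxd bars drop from 1212 and 1164 to 605 and 683, and the Hoxc bars rise from 188 and 164 to 379.8 and 336.

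By position there was no steady change from anterior to posterior. The median log2 fold change was 0.09 over 6 anterior genes (none higher, 2 lower) and -0.24 over 8 central genes (2 higher, 3 lower). It was -0.18 over 6 posterior genes (1 higher, 2 lower). These calls stand beside 33.5% higher and 38.2% lower over all genes. Leaving out genistein 1 turned the anterior median to -0.0033 and the posterior median to 0.078, and leaving out genistein 2 moved the posterior median to -0.47. The anterior sum was 993 and 1015 in untreated and 888 and 848 in treated libraries, but without Hoxb2 it was 532 and 576 and then 625 and 552. The central sum was 1521 and 1500.2 and then 1001 and 1076, but without Hoxd8 it was 684 and 691 and then 664 and 677. The posterior sum was 454 and 418 and then 556 and 526, but without Hoxc13 it was 302 and 292 and then 198 and 206. The anterior and central sums were thus lower and the posterior sum higher. Without these single genes the anterior groups overlapped, the central log2 ratio was -0.04 and the posterior sum was lower.

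Noncoding RNA genes inside the clusters were few. Of 18 listed genes found in the table, 6 were tested, 2 were higher and 1 was lower, beside 33.5% and 38.2% of all genes. Hoxb3os, an antisense RNA across Hoxb3 and Hoxb2, had 132 and 112 normalised counts in untreated and 185 and 182 in treated libraries, with no overlap (log2 fold change 0.59 ± 0.12, edgeR adjusted p = 4.9e-04, DESeq2 adjusted p = 0.014). It shares 52.9% of the exon bases of Hoxb3 and 27.3% of those of Hoxb2 on the opposite strand, and since the strand setting of the counting is not given in the sources used here, reads of these genes may not have been separated. Hoxd3os1, antisense to Hoxd3 and Hoxd4, had 58.9 and 61.4 and then 40.3 and 30.4 (log2 fold change -0.76 ± 0.21, edgeR adjusted p = 0.0041, DESeq2 adjusted p = 0.069). Halr1, a noncoding RNA at the anterior end of Hoxa, had 5 and 6.35 and then 18.8 and 11.1 (log2 fold change 1.40 ± 0.47, edgeR adjusted p = 0.014, DESeq2 adjusted p = 0.15). Halr1 passed the low-count filter only through the genistein libraries, in which it was high. Its log2 fold change ran from 0.97 to 1.71 with 1 library left out. Hotairm1, Hoxaas2 and Hoxaas3 had no call, with log2 fold changes of -0.20, 0.46 and 0.15. Hotair, which lies in Hoxc and is known from posterior fibroblasts, had no count in any library, and Hottip, at the posterior end of Hoxa, had 1 count in 1 library.

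Hox proteins bind DNA together with TALE homeodomain partners of the Pbx, Meis and Pknox families, and Hox transcription is set by retinoic acid, trithorax proteins and insulators. Of 36 such genes, 25 were tested, 10 were higher and 10 were lower, with a median log2 fold change of -0.07. These 20 called genes of 25 stand beside the 71.7% called over all genes. Of the 9 TALE genes, 5 were higher and 2 were lower, beside 33.5% and 38.2% of all genes. Pbx4 had only 5.99 and 18 normalised counts in untreated libraries and 83.5 and 86.0 in treated ones (log2 fold change 2.83 ± 0.29, edgeR adjusted p = 2.3e-07). Meis1, a common partner of posterior Hox proteins, had 409 and 389.6 and then 791 and 767 (log2 fold change 0.97 ± 0.06, edgeR adjusted p = 9.9e-10). Both genes were higher in every treated library. Pbx4 passed the low-count filter only through the genistein libraries, in which it was high, since untreated 1 lay below the limit.

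On the trithorax side, 2 of 7 genes were higher and 4 were lower, beside 33.5% and 38.2% of all genes. Kmt2a, the H3K4 methyltransferase that maintains Hox expression, rose by a log2 fold change of 0.61 ± 0.05 (edgeR adjusted p = 9e-09), and Kdm6b, an H3K27 demethylase, by 0.77 ± 0.09 (edgeR adjusted p = 1.8e-06). The partners of the Kmt2a complex fell, with log2 fold changes of -1.01 ± 0.04 for Wdr5, -0.90 ± 0.06 for Men1 and -0.73 ± 0.04 for Psip1, which ties menin and Kmt2a to chromatin. The insulator protein Ctcf, which separates active and silent parts of Hox clusters, had 4475 and 4388 normalised counts in untreated and 1873 and 1917 in treated libraries (log2 fold change -1.23 ± 0.04, edgeR adjusted p = 4.8e-14). Maz, which acts with it, fell as well (log2 fold change -0.91 ± 0.05). Of the retinoic acid genes, 6 of 14 were tested, 3 were higher and 1 was lower, beside the same shares of all genes. Among the higher, Rxra rose by a log2 fold change of only 0.098 ± 0.037 (edgeR adjusted p = 0.026) and was not called by DESeq2 (adjusted p = 0.19). Aldh1a3, which makes retinoic acid, was called higher from low counts of 4 and 3.18 to 14.1 and 15.2 (edgeR adjusted p = 0.0018, DESeq2 adjusted p = 0.051). It passed the low-count filter only through the genistein libraries, in which it was high. The Hox activators Cdx2 and Cdx4 had no counts and Cdx1 had 1, and geminin (Gmnn), the tested gene of that list, fell by 0.48 on the log2 scale.

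**Figure D4:**
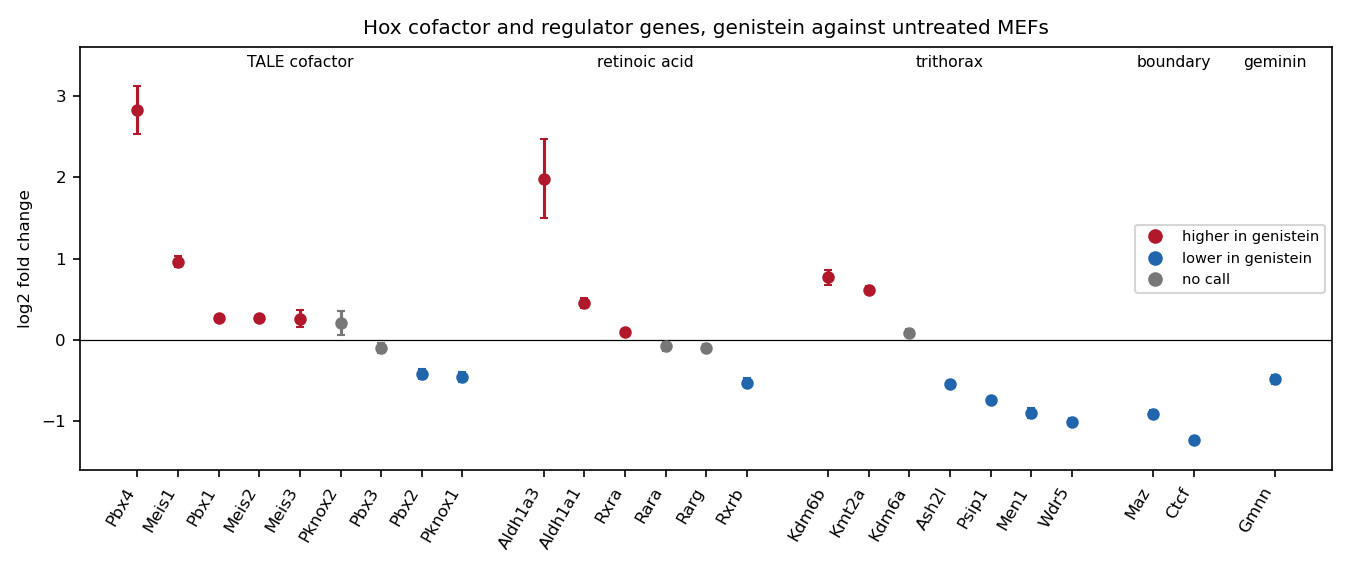
Log2 fold change (genistein against untreated, bars ± SE of the edgeR fit) of the 25 tested Hox cofactor and regulator genes, grouped by role and coloured by call. Pbx4 at 2.83 and Aldh1a3 at 1.98 stand highest and Ctcf at -1.23 lowest. Pbx4 and Aldh1a3 passed the low-count filter only through the genistein libraries.

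Genes that flank the clusters were set beside them. Of 19 tested flanking genes, 6 were higher and 12 were lower, beside 33.5% and 38.2% of all genes. Around Hoxa, 3 of 4 were higher, with Snx10 at a log2 fold change of 0.84, Skap2 at 0.63 and Tax1bp1 at 0.12, and Hibadh was lower at -0.13. Around Hoxd, Mtx2 was lower at -0.57, Hnrnpa3 at -0.29, Lnpk at -0.11 and Atp5g3 at -0.76, and Atf2 was higher at 0.20. Around Hoxc, Calcoco1 was higher at 1.73 and Atp5g2, Smug1, Cbx5 and Hnrnpa1 were lower, from -0.60 to -0.30. Around Hoxb, Nfe2l1 was higher at 0.31 and Cbx1 (-0.65), Atp5g1 (-0.80) and Igf2bp1 (-0.46) were lower. Thus the flanks of a cluster did not all move in 1 direction, and the calls of Hibadh and Lnpk were not made by DESeq2 (adjusted p = 0.13 and 0.12). Among 14 positional transcription factors outside the clusters, Tbx18 was the gene called higher (log2 fold change 0.72), 4 of the 10 tested were lower (71.7% of all genes were called), and the limb genes Tbx4 and Tbx5 had no counts.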

How the data were processed

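Total RNA libraries were depleted of ribosomal RNA (TruSeq Stranded Total RNA Gold). Per the study's methods, Trim Galore removed adapters and STAR placed the reads on mm10, multi-mapping ones included; the authors deposited the raw counts that TEtranscripts gave for each gene and repeat subfamily. The strand setting of the counting is not given in the sources used here. The deposited table held 47937 genes and 1445 repeat subfamilies, and 1 unnamed row with at most 0.00314% of the counts was left out. Gene symbols, positions and exon lengths were taken from GENCODE M21 on GRCm38, the same assembly. The study's methods name an earlier GENCODE release for the counting. Exon lengths and overlaps given here may therefore differ from the gene models that assigned the reads.

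Counts were fitted with edgeR 4.0.16 (filterByExpr by group, TMM, quasi-likelihood test) in R 4.3.3, with Benjamini-Hochberg adjustment over the 17358 kept entries (16240 genes and 1118 repeats) and calls at an adjusted p under 0.05. Alternatives were DESeq2 1.42.0, its size factors in edgeR, scaling on genes alone or on library totals, no filter, a replicate block, stricter thresholds and leaving out each library. Normalised counts are raw counts scaled to the mean effective library size. Of 200 entries changed by 1 on the log2 scale in simulated data of this design (17068 entries), the fit called 164, with 8 unchanged entries called. The simulation gave every entry the same dispersion of 0.01 and changed a far smaller share of entries than the 71.7% of genes called here. It therefore does not show how the fit performs on these data. Within a group the libraries were not copies of each other (chi-square over its degrees of freedom 4.53 untreated and 10.1 genistein), so each counted as 1 replicate. Their log counts correlated at 0.994 within and at 0.956 to 0.960 between groups.

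Per-library values are given for called Hox genes and for the member of each cluster with the most counts, except that 1 gene and 1 sequence are not reported here; members with fewer than 10 reads in every library are named, and cofactor and regulator genes are named by the largest fold changes, up to 5 in each direction. Others named are tested noncoding RNAs, called flanking genes, and a few genes chosen after their values were seen. The members and lists were chosen with earlier results of these data known.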

Additional observations from a re-analysis of the deposited data

How the results depend on the processing

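The counts of called Hox genes (3 higher, 7 lower) fell with DESeq2 to 1 higher and 4 lower, and with the fold and mean count thresholds to 1 higher and 2 lower. With 1 library left out, in fits where the lone library is assumed to vary like the other group, 1 to 3 were higher and 4 to 7 were lower; the lows came without untreated 1 (1 and 4), without genistein 1 (1 higher) and without genistein 2 (4 lower). Equal counts did not mean the same genes, since Hoxb5 and Hoxc4, untested in the main fit, entered some of these fits and were called there. The counts of cofactor and regulator genes stayed within 1.5 times under every alternative run. Direction turned in genes with no call: with 1 library left out, Hoxa10 ran from -0.053 (without genistein 2; -0.03 without untreated 1) to 0.17 and Hoxd4 from -0.22 to 0.092 (without genistein 1; 0.0062 without untreated 1), and Hoxd4 was 0.0063 with library totals. The Hoxb sum turned from -0.23 to 0.052 without Hoxb2 and the Hoxc sum from 1.02 to -0.97 without Hoxc13, and the Hoxd sum moved to -0.40 without Hoxd8 (log2 ratios, chosen after seeing the data).

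The central median moved from -0.24 to -0.20 when scaling used genes alone, -0.17 under library totals, -0.27 without the low-count filter and -0.25 under DESeq2. The Hoxb sum moved from -0.23 to -0.19, -0.16 and -0.26 under the first 3 of these, and the Hoxa sum to 0.089 with library totals. With 1 library left out, medians ran from -0.36 to -0.036 in Hoxa, 0.012 to 0.19 in Hoxb, -0.73 to -0.50 in Hoxd, -0.29 to -0.20 over central and -0.47 to 0.078 over posterior genes, and the Hoxb sum from -0.25 to -0.22. The cause of these shifts was not tested. Depth limits the low members, since 19 of 39 genes could not be tested. No alternative scaling moved the median of all genes by over 0.1.

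The labels number replicates 1 and 2 in both groups, but same-numbered libraries did not deviate together (r = -0.034), so the numbers were not taken to pair them. With the replicate block, 2 Hox genes were higher and 7 lower, and Hoxb6 was the call lost (edgeR adjusted p = 0.052).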
